A study of Mus musculus with 9 samples.

Results

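The inflammasome and pyroptosis genes described here are 10 genes: the sensors Nlrp3 and Nlrc4, the adaptor Pycard, the caspases Casp1 and Casp4, the pore protein gene Gsdmd, the cytokines Il1b and Il18, the ATP receptor P2rx7 and the channel Panx1. Their members were taken as all probes that the array's annotation assigns to these symbols, which gave 23 of 45281 probes and 10 of 19057 annotated genes. The cells were RAW264.7, an established line of mouse macrophages, profiled on 9 Illumina bead arrays in 3 groups of 3. The control group is untreated RAW264.7 cells. The knock-down group carries, stably, a short hairpin RNA against Nfat5, the gene of a transcription factor known for its part in the response to hypertonic salt. The decoy group is stably transfected with oligonucleotides that hold the NFAT5 consensus sequence and so compete for the protein. All groups were grown in alpha-MEM with serum, and the labels name no stimulus that would prime an inflammasome. One characteristics heading speaks of IL-1β treatment, but its entries describe the hairpin and the decoy, and no cytokine is named in them. The labels do not say whether a treated group is 1 clone. None of the groups holds a hairpin or an oligonucleotide with an unrelated target, so a difference from control also includes any effect of transfection and selection. The labels do not name the 3 samples of a group as separate cultures. The p-values therefore reflect only how these samples vary among themselves, and that variation may be technical.

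An inflammasome is a cytosolic complex in which a sensor such as NLRP3 or NLRC4 recruits caspase-1, often through the adaptor ASC, the product of Pycard. Caspase-1 matures interleukin-1β and interleukin-18 and cleaves gasdermin D, whose N-terminal part opens pores in the plasma membrane and causes the lytic death called pyroptosis. Mouse caspase-11, encoded by Casp4, senses cytosolic lipopolysaccharide and also cleaves gasdermin D. Extracellular ATP acts on the receptor P2X7, and pannexin-1, a plasma membrane channel that releases ATP and small ions, lies upstream of NLRP3. Transcripts of Nlrp3 and Il1b are known to rise in macrophages on priming through Toll-like or cytokine receptors, and RAW264.7 cells are known to lack ASC protein.

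Sequence was read around the annotated starts of the members, since NFAT factors bind DNA with the core GGAAA. RefSeq on GRCm38.p6 gave 12 windows of 250 bases before to 50 bases after a start, for 9 of the 10 members, all but Gsdmd. GGAAA, searched on both strands, lay in 10 of the 12 windows and 8 of the 9 genes, and in 61.3% of all 32851 mouse windows. TGGAAA, which contains that core and overlaps it, lay in 4 member windows, of Il1b, Nlrp3 and Pycard, and in 21.4% of all windows. The tonicity-responsive enhancer consensus, the longer element that NFAT5 is known for, matched 1 member window, of Nlrp3, and 4.96% of all windows. These matches describe letters and say nothing of binding. Shown are the windows of Panx1, of the neighbouring caspase genes Casp1 and Casp4, and of Nlrp3, with the longer match. Panx1 had at least 1 probe called in each of the 3 comparisons below. GGAAA and its reverse complement TTTCC are in capitals.
Panx1, chr9:15045429-15045728, minus strand: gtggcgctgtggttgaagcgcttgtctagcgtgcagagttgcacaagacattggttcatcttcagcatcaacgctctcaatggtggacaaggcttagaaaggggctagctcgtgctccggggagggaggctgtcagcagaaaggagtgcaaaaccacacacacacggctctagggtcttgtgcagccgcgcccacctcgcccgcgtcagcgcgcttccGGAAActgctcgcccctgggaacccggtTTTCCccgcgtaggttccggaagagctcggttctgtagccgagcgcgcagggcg
Casp1, chr9:5298267-5298566, plus strand: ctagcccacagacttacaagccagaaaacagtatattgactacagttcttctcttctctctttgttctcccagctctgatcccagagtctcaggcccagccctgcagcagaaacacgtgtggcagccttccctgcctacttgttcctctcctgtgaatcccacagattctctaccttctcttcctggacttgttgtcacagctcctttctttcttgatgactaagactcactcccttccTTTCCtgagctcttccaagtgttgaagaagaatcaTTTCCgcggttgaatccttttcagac
Casp4, chr9:5308599-5308898, plus strand: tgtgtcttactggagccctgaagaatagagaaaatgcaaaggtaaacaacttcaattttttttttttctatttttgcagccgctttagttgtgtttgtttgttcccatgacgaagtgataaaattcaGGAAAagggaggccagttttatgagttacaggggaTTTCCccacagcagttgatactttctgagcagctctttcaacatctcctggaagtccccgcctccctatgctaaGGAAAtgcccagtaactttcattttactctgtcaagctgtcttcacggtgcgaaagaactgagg
Nlrp3, chr11:59542436-59542735, plus strand: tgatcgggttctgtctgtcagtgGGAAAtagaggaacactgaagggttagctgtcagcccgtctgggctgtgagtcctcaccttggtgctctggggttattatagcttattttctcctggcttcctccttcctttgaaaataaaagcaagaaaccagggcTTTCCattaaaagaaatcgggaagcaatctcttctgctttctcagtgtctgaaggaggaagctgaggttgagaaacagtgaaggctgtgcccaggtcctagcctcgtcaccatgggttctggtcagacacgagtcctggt

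In the Panx1 window GGAAA started on the gene's strand at -32, counted in bases from the annotated start, with a copy on the other strand at -4. In the Casp1 window both copies lay on the other strand, at -11 and 25 relative to the start. In the Casp4 window the copies lay at -123, -88 and -14. The longer Nlrp3 match lay on the other strand at -95. Among protein-coding genes Casp1 and Casp4 are next to each other on chromosome 9, with Casp12 beyond Casp4. P2rx7 is next to P2rx4 on chromosome 5, and Il1b next to Il1a on chromosome 2.

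The control arrays were brighter than the others, with upper quartiles of 319 to 336 units against 209 to 257 in the knock-down and 214 to 237 in the decoy group. The raw intensity exceeded the background limit, set for each array between 193 and 254 units, for 34.1% to 34.9% of probes on control arrays, 21.5% to 27.1% on knock-down arrays and 24.6% to 26.9% on decoy arrays. The values tested below were background-corrected and quantile-normalised on the log2 scale, which gives every array the same distribution. Raw values of Nfat5 and of most member probes are given beside them because the groups differ in brightness. Quantile normalisation was set against scaling by the array median, under which the median difference of all kept probes was -0.43 for knock-down and -0.37 for decoy against control. The share of rises among the called probes was then 14.6% and 13.9%, against 48.6% and 46.9%. The part of overall brightness in the results was not tested. Nfat5 itself, by probe ILMN_2612448, read 5049, 4591 and 4857 raw units in control, 1428, 1051 and 734 in knock-down, and 2083, 1731 and 1430 in decoy cells. It fell by 1.03 on the log2 scale in the knock-down (2.04-fold, limma adjusted p = 2.49e-05) and by 0.49 in the decoy group (1.40-fold, adjusted p = 0.0112). Its second probe above background, ILMN_2735633, differed by 0.65 and 0.72 in the opposite direction (adjusted p = 0.00153 and 0.00107), although its raw signal was 752, 685 and 625 in control, 596, 489 and 390 in knock-down and 640, 569 and 509 in decoy cells. The Nfat5 probes ILMN_2732123 and ILMN_2491543 were under background on all 9 arrays. ILMN_2732123 was called higher in the knock-down (0.45, limma adjusted p = 0.0414) but not in the decoy group (0.335, adjusted p = 0.141). ILMN_2491543 was called in neither. The macrophage markers Csf1r, Lyz2 and Cd14 were above background on all 9 arrays, while Itgam and Mertk were above it on none. The summed raw signal of the 7 macrophage markers with a probe was 88389 to 90536 in control, 54722 to 96847 in knock-down and 75500 to 85214 in decoy cells. None of 5 lymphocyte markers was above background on any array. Of the neutrophil markers only S100a8 exceeded background on all arrays, of the fibroblast markers only Acta2, and of the epithelial markers none. The summed signals in control, knock-down and decoy cells were 1057 to 1168, 1367 to 1601 and 1329 to 1427 for the 7 neutrophil markers with a probe, 1368 to 1468, 1773 to 2103 and 1455 to 1767 for the 8 fibroblast markers, and 873 to 889, 940 to 1034 and 856 to 954 for the 6 epithelial markers. In RNA from whole cultures, fewer cells expressing a gene and less RNA per cell cannot be told apart.

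The clearest differences among the members were in Panx1, which was lower in the knock-down group on both of its probes above background, by 3.47-fold on a probe with 1 of 3 knock-down arrays above background and by 2.35-fold on a probe above it on all arrays. On both it was lower there than in the decoy group. After quantile normalisation Casp1 was higher in knock-down cells by 1.35-fold and in decoy cells by 1.45-fold, a direction that turned under median scaling. The probes of Gsdmd and those of Il18 disagreed with each other. Nlrp3 and Il1b had no probe above background on any array, and Nlrc4 and Pycard were at the limit of detection. Of the 23 member probes, 18 passed the filter on low signal, 11 exceeded background on at least 3 arrays, 7 did so on all 9, and 9 on none. By gene, 5 of 10 had a probe above background on all arrays, which were Casp1, Casp4, Gsdmd, Il18 and Panx1, and P2rx7 was the further gene with a probe above background on at least 3.

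**Figure D1:**
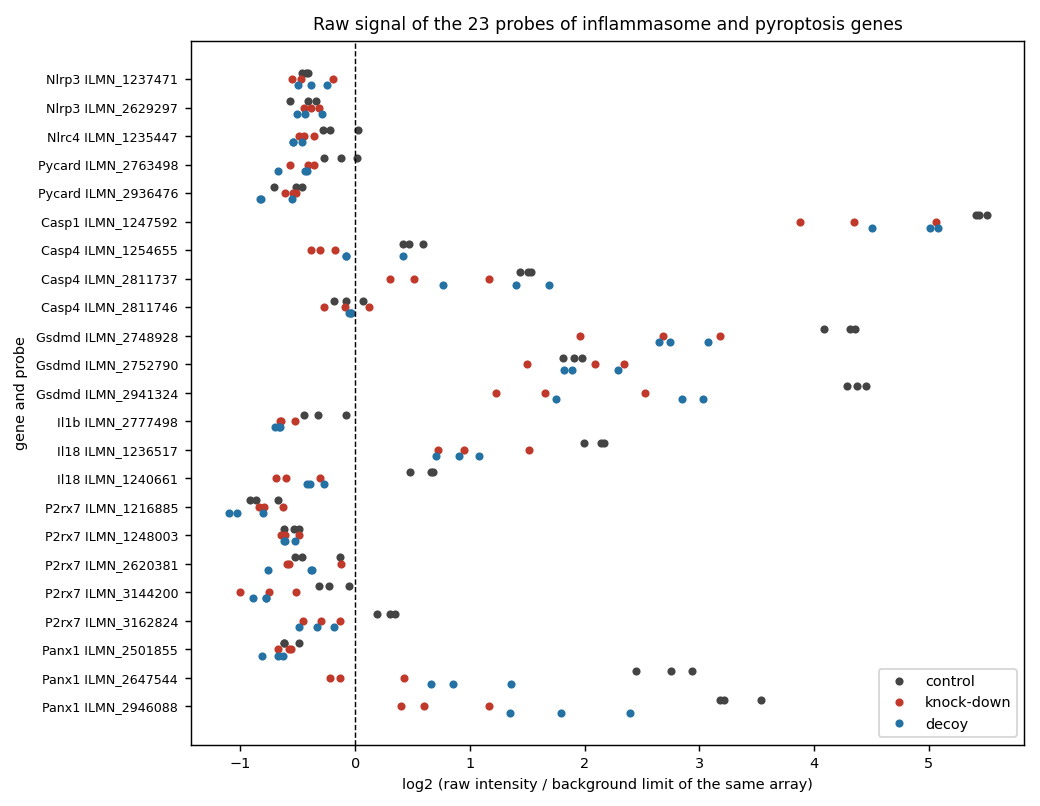
Raw intensity of each of the 23 member probes as log2 of its ratio to the background limit of the same array; each point is 1 array, with 3 control, 3 knock-down and 3 decoy arrays, and the dashed line marks the limit. All points of Nlrp3 and Il1b lie left of the line, the Casp1 probe lies far to its right on all arrays, and the control points of Panx1 ILMN_2647544 lie right of all treated points.

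Of the 18 member probes tested, 10 were called in the knock-down against control at an adjusted p below 0.05, where the share among all 27062 kept probes was 46.5%. The member share was 55.6%, so the members as a group were called about as often as other probes. There were 5 rises and 5 falls, with 22.6% and 23.9% of all kept probes called higher and lower, and the called probes belonged to 6 genes. In the decoy against control 7 of 18 were called (38.9%, against 34.3% of all kept probes), 3 higher and 4 lower, where 16.1% and 18.2% of all kept probes were called. The median log2 difference of the 18 probes was -0.15 for the knock-down and -0.17 for the decoy, beside 0.01 for all kept probes in both. Between the knock-down and decoy groups 2 member probes were called, both lower in the knock-down and both of Panx1, where 2.68% of all kept probes were called, 1.06% higher and 1.62% lower. Both comparisons with control use the same 3 control arrays. Under median scaling the member calls were 10 falls and 0 rises for the knock-down, 8 falls and 0 rises for the decoy, and 0 between the treated groups. Falls also prevailed among all 27062 kept probes under that scaling. There were 13157 falls and 2244 rises in the knock-down, and 11784 falls and 1898 rises in the decoy group.

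**Figure D2:**
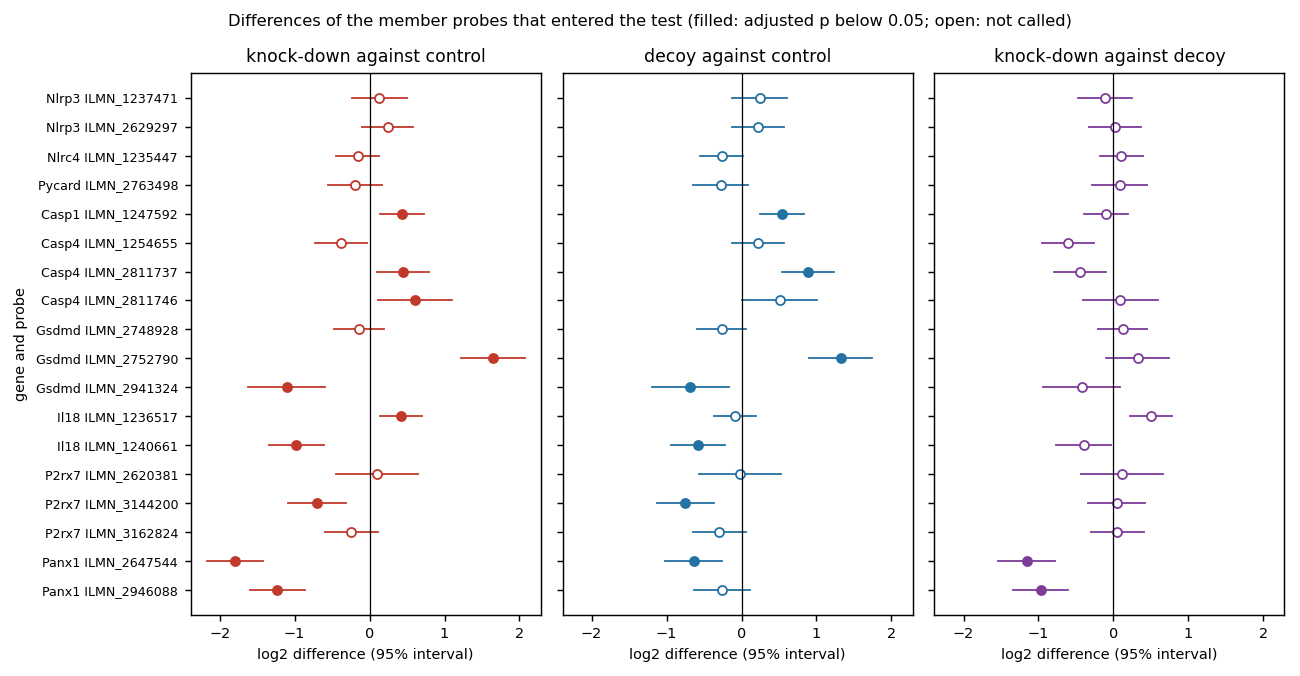
Log2 differences of the 18 tested member probes after quantile normalisation for the knock-down and the decoy against control and, at the right, for the knock-down against the decoy, with 95% intervals from limma over 9 arrays; filled points passed an adjusted p below 0.05 over all kept probes. Both Panx1 probes in the right panel lie below 0 with filled points, and the Gsdmd probes lie on both sides of 0 in the left and middle panels.

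Nlrp3, the sensor of potassium efflux and membrane damage, gave no signal above background. Probe ILMN_1237471 read 140, 149 and 146 raw units in control, 201, 173 and 170 in knock-down and 181, 162 and 166 in decoy cells, all under the limits of their arrays. Probe ILMN_2629297 read 130, 151 and 153, then 169, 194 and 189, then 151, 169 and 178. The treated raw values of the first probe were all above the control values, while the background limit was also higher on the treated arrays, at 214 to 254 against 193 to 200 units. After normalisation the differences were 0.13 and 0.24 in the knock-down (adjusted p = 0.554 and 0.237) and 0.24 and 0.22 in the decoy group (adjusted p = 0.291 and 0.317). No change of Nlrp3 was detectable at this signal.

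Nlrc4, which assembles with NAIP proteins that bind bacterial flagellin and secretion system parts, exceeded background on 1 of 9 arrays, the third control. Its raw values were 165, 165 and 198 in control, 179, 186 and 168 in knock-down and 147, 166 and 149 in decoy cells. The control values overlapped both treated groups in raw signal, while after normalisation they lay above all decoy values. The differences were -0.16 (95% interval -0.45 to 0.13, adjusted p = 0.352) and -0.26 (-0.55 to 0.03, adjusted p = 0.145). Pycard was also at the detection limit. Its tested probe ILMN_2763498 read 177, 166 and 196 in control, 173, 171 and 184 in knock-down and 158, 144 and 162 in decoy cells, with the third control array alone above background, and differed by -0.19 and -0.28 (adjusted p = 0.368 and 0.223). The raw decoy values of the tested probe lay below all its control values, while the normalised values overlapped. The other Pycard probe, ILMN_2936476, failed the filter on low signal, at 119 to 140, 154 to 175 and 121 to 157 units.

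Casp1, the protease at the centre of the complex, was strongly expressed in every group. Its single probe, ILMN_1247592, read 8727, 8511 and 8433 raw units in control, 7684, 5183 and 3467 in knock-down and 6924, 7737 and 4929 in decoy cells. The raw signal was thus lower on all 6 treated arrays than on any control array. The normalised log2 level was 12.43, 12.28 and 12.30 in control, 12.79, 12.86 and 12.67 in knock-down and 12.80, 13.05 and 12.79 in decoy cells, so that after normalisation every treated array lay above every control array. The group means were 12.34 ± 0.08, 12.77 ± 0.10 and 12.88 ± 0.15 (SD, n = 3 each). The difference was 0.43 in the knock-down (95% interval 0.14 to 0.73, 1.35-fold, limma adjusted p = 0.0182) and 0.54 in the decoy group (0.24 to 0.83, 1.45-fold, adjusted p = 0.00762). The knock-down and decoy groups differed by -0.11 (-0.40 to 0.19, adjusted p = 0.735). Under median scaling the differences from control turned to -0.65 (adjusted p = 0.043) and -0.32 (adjusted p = 0.291), or -0.22 and 0.04 relative to the median of all probes. The call in the knock-down was lost without control replicate 2 (adjusted p = 0.068), control replicate 3 (0.0629) or knock-down replicate 2 (0.0503).

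Casp4, which encodes the mouse lipopolysaccharide sensor caspase-11, had 3 probes, of which ILMN_2811737 was above background on all arrays. That probe read 558, 568 and 525 raw units in control, 517, 363 and 291 in knock-down and 690, 607 and 370 in decoy cells, so the raw signal was lower on all knock-down arrays and overlapped control in the decoy group. Its normalised log2 level was 8.35, 8.31 and 8.24 in control, 8.87, 8.67 and 8.71 in knock-down and 9.43, 9.33 and 8.81 in decoy cells. After quantile normalisation it was higher by 0.45 in the knock-down (1.37-fold, adjusted p = 0.0345), with -0.65 under median scaling (adjusted p = 0.0631). In the decoy group it was higher by 0.89 (1.85-fold, adjusted p = 0.000801), with 0.01 under median scaling (adjusted p = 0.968). Relative to the median of all probes, the values under median scaling were -0.22 and 0.38. The knock-down call was also lost without any 1 of the 3 control arrays (adjusted p = 0.0728, 0.0838 and 0.112 in order) and without knock-down replicate 1 (0.0885), and the mean over the 3 kept probes of Casp4 was 0.22 there (0.204). The knock-down and decoy groups differed by -0.44 on it (95% interval -0.79 to -0.09, adjusted p = 0.161), which passed the threshold without decoy replicate 3 (-0.64, adjusted p = 0.0335).

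The other Casp4 probes did not follow that pattern throughout. ILMN_1254655 read 266, 267 and 293 in control, 204, 194 and 190 in knock-down and 287, 217 and 205 in decoy cells, and was above background on the control arrays, on none of the knock-down and on 1 of the decoy arrays. It differed by -0.38 in the knock-down (adjusted p = 0.0627) and 0.22 in the decoy group (adjusted p = 0.304), and by -0.60 between the treated groups (95% interval -0.95 to -0.26, adjusted p = 0.0576). ILMN_2811746 exceeded background on 1 of 3 control and 1 of 3 knock-down arrays and on no decoy array. It was called higher by 0.60 in the knock-down (adjusted p = 0.0448), where replicate 3 read 256 units against 216 and 210, and the difference was 0.25 without that replicate (adjusted p = 0.193). Where the 3 probes bind in the Casp4 transcripts was not analysed here.

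**Figure D3:**
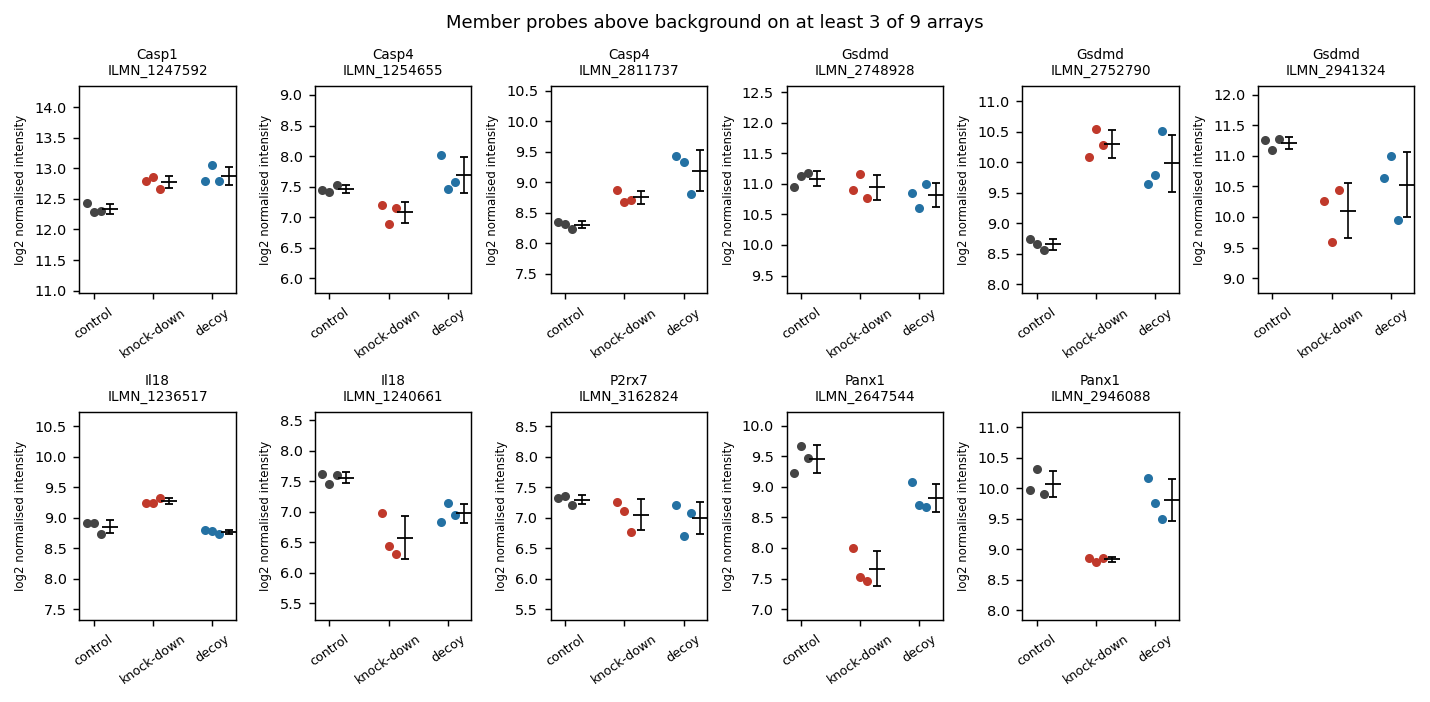
Normalised log2 intensity of the 11 member probes above background on at least 3 arrays; each point is 1 array, and the bar beside each group shows its mean and SD (n = 3), with the same height of axis for every probe. The knock-down points of both Panx1 probes lie below the control and decoy points, the Casp1 points of both treated groups lie above control after this normalisation, and Gsdmd moves up on 1 probe and down on another.

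Gsdmd, which encodes the pore-forming protein of pyroptosis, had 3 probes above background on all 9 arrays, and they gave opposite answers. ILMN_2752790 read 756, 749 and 680 raw units in control, 1168, 1082 and 664 in knock-down and 796, 810 and 1061 in decoy cells. Its normalised level was 8.74, 8.66 and 8.56, then 10.08, 10.54 and 10.28, then 9.64, 9.78 and 10.51 on the log2 scale. All treated arrays lay above all control arrays, and the probe rose by 1.64 in the knock-down (3.13-fold, adjusted p = 1.39e-05) and by 1.32 in the decoy group (2.50-fold, adjusted p = 0.000177). Under median scaling the same differences were 0.43 and 0.36 and were not called (adjusted p = 0.105 and 0.174), or 0.86 and 0.73 relative to the median of all probes.

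ILMN_2941324, also assigned to Gsdmd, read 3999, 3901 and 4251 raw units in control, 1324, 594 and 741 in knock-down and 1547, 1876 and 731 in decoy cells. Its normalised level was 11.26, 11.10 and 11.27, then 10.27, 9.60 and 10.45, then 10.64, 10.99 and 9.95. Here all treated arrays lay below all control arrays in raw and in normalised signal. The probe fell by 1.11 in the knock-down (95% interval -1.62 to -0.59, 2.16-fold, adjusted p = 0.00176) and by 0.68 in the decoy group (-1.20 to -0.17, 1.61-fold, adjusted p = 0.0398). The fall in the knock-down was called in 17 of 17 settings, the main one included, and that in the decoy group in 11 of 17. The decoy call was lost without any 1 of the 3 control arrays (adjusted p = 0.0997, 0.0674 and 0.103 in order) and without decoy replicate 1 (0.0638) or replicate 3, where the value was -0.40 (adjusted p = 0.188). The knock-down and decoy groups differed by -0.42 (-0.94 to 0.09, adjusted p = 0.372).

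The remaining Gsdmd probe, ILMN_2748928, read 3274, 3984 and 3974 in control, 2078, 1629 and 917 in knock-down and 1811, 1434 and 1456 in decoy cells. Its raw signal was lower on all treated arrays, while its normalised differences of -0.14 and -0.27 were not called (adjusted p = 0.466 and 0.195). Median scaling gave -1.32 and -1.20 (adjusted p = 0.00112 and 0.00276), or -0.89 and -0.83 relative to the median of all probes. No single direction for Gsdmd can be given from these 3 probes, and which transcripts each of them detects was not analysed here.

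Il1b, the gene of the cytokine most often used as a readout of inflammasome activity, had 1 probe and was not above background. It read 154, 147 and 184 raw units in control, 146, 162 and 164 in knock-down and 135, 141 and 138 in decoy cells, and it failed the filter on low signal. Il18, whose product needs caspase-1 cleavage but whose transcript is known to be present in resting macrophages, was above background on all arrays by probe ILMN_1236517. That probe read 851, 899 and 775 raw units in control, 658, 490 and 388 in knock-down and 454, 430 and 354 in decoy cells. Raw signal was lower on every treated array. Its normalised level was 8.91, 8.91 and 8.73 in control, 9.24, 9.24 and 9.33 in knock-down and 8.79, 8.78 and 8.73 in decoy cells. After quantile normalisation it was 0.42 higher in the knock-down (95% interval 0.14 to 0.70, 1.34-fold, adjusted p = 0.0155), with -0.81 under median scaling (adjusted p = 0.00551) and adjusted p = 0.0821 without control replicate 3. The decoy group differed from control by -0.08 (-0.36 to 0.19, adjusted p = 0.646), and by -1.07 under median scaling (adjusted p = 0.0015). Between the knock-down and the decoy groups the difference of 0.50 (0.23 to 0.78) missed the threshold at adjusted p = 0.0513, and it was called in 5 of 19 settings.

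The second Il18 probe, ILMN_1240661, was above background on the control arrays only. It read 304, 278 and 311 in control, 186, 167 and 146 in knock-down and 160, 190 and 165 in decoy cells, with no overlap between control and either treated group. It was called lower by limma in both (-0.98, adjusted p = 0.000329, and -0.58, adjusted p = 0.0167). No fold is given because the treated signals lie under the limit and the lowest signal above background on those arrays is as bright as the control values. The decoy call was lost without control replicate 1 or 3 or decoy replicate 1 (adjusted p = 0.072, 0.0682 and 0.0625). The direction of Il18 in the knock-down thus differed between its 2 probes, and the mean over both was -0.28 (adjusted p = 0.072).

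P2rx7, the ATP-gated cation channel that drives potassium efflux, had 5 probes, of which 1 was above background anywhere. That probe, ILMN_3162824, read 238, 255 and 222 raw units in control, 210, 207 and 172 in knock-down and 189, 163 and 172 in decoy cells. It exceeded the limit on all 3 control arrays and on no treated array, and all treated raw values lay below all control values. The normalised differences of -0.24 and -0.30 were not called (adjusted p = 0.242 and 0.184), while median scaling gave -0.57 and -0.62 (adjusted p = 0.0117 and 0.0095). Relative to the median of all probes, the values under median scaling were -0.15 and -0.25. ILMN_3144200 was called lower by limma in both groups (-0.70 and -0.75, adjusted p = 0.005 and 0.00502) but was under background on all 9 arrays, at 155, 171 and 187, then 161, 127 and 140, then 125, 124 and 127 units, so no fold is given. ILMN_2620381 was not called, and ILMN_1216885 and ILMN_1248003 failed the filter on low signal.

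Panx1, the gene of the ATP-releasing channel, was the member with the largest fall and the only member called between the treated groups. Probe ILMN_2647544 read 1053, 1531 and 1305 raw units in control, 308, 232 and 202 in knock-down and 549, 414 and 343 in decoy cells. The 3 groups did not overlap, with decoy cells between the other two. In normalised log2 units it was 9.23, 9.67 and 9.47 in control, 7.99, 7.52 and 7.47 in knock-down and 9.08, 8.71 and 8.67 in decoy cells, with group means of 9.46 ± 0.22, 7.66 ± 0.29 and 8.82 ± 0.23 (SD, n = 3 each). It fell by 1.80 in the knock-down (95% interval -2.18 to -1.42, 3.47-fold, adjusted p = 2.13e-06), where 1 of 3 arrays was above background. In the decoy group it fell by 0.64 (-1.02 to -0.26, 1.56-fold, adjusted p = 0.0124). The knock-down was 1.16 lower than the decoy group (-1.54 to -0.78, 2.23-fold, adjusted p = 0.00256).

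Probe ILMN_2946088, above background on all 9 arrays, read 1785, 2329 and 1759 raw units in control, 515, 384 and 311 in knock-down and 1128, 797 and 553 in decoy cells. Raw values again separated all 3 groups. The normalised level was 9.98, 10.31 and 9.91 in control, 8.86, 8.79 and 8.86 in knock-down and 10.17, 9.75 and 9.50 in decoy cells, with decoy and control overlapping. Its means were 10.07 ± 0.22, 8.84 ± 0.04 and 9.81 ± 0.34 (SD, n = 3 each). It fell by 1.23 in the knock-down (-1.60 to -0.86, 2.35-fold, adjusted p = 5.06e-05), while the decoy difference of -0.26 (-0.63 to 0.11) was not called (adjusted p = 0.258). The knock-down was 0.97 lower than the decoy group (-1.34 to -0.60, 1.96-fold, adjusted p = 0.00744). The fall in the knock-down was called in 17 of 17 and 19 of 19 settings for these 2 probes, with log2 differences from -2.77 to -1.45 and from -2.47 to -1.09. The difference between the treated groups was called in 16 of 17 and 18 of 19 settings and lost under median scaling (-1.13 and -1.20, adjusted p = 0.144 and 0.164). The decoy call of the first probe was lost without control replicate 2 (-0.53, adjusted p = 0.0671) or decoy replicate 2 (-0.58, adjusted p = 0.0522). The third Panx1 probe, ILMN_2501855, failed the filter on low signal, at 122 to 170 units over all arrays.

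**Figure D4:**
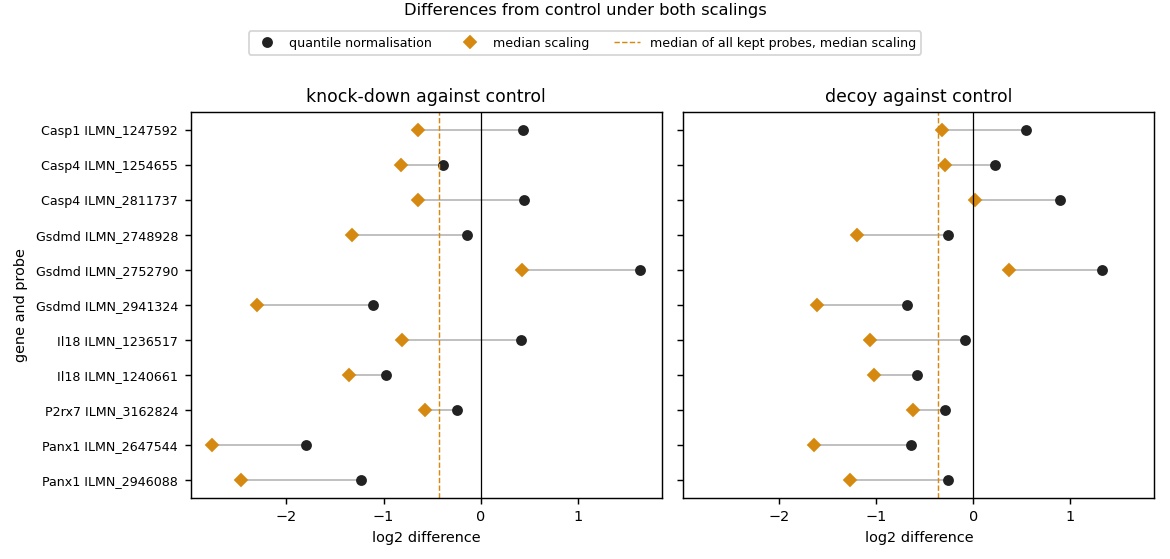
Log2 differences from control of the 11 member probes above background on at least 3 arrays, in the knock-down (left) and decoy (right) groups, after quantile normalisation (circles) and after median scaling (diamonds); the dashed line is the median of all kept probes under median scaling. Panx1 lies left of the dashed line under both scalings in the knock-down, while Casp1, Casp4 ILMN_2811737 and Il18 ILMN_1236517 cross 0 there.

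The pathway around the members was followed in 5 lists of 78 genes, each gene by its brightest kept probe. A probe was kept for 55 of them. In the knock-down 20 rose and 11 fell (36.4% and 20.0% of 55), where 47.9% of all 13716 genes with a kept probe were called, 26.5% higher and 21.4% lower. In the decoy group 16 rose and 9 fell (29.1% and 16.4%), where 34.8% of all genes were called, 18.1% higher and 16.7% lower. Among the counted rises, the probes of Mefv, Gbp2, Serpinb1a, Il1a and P2ry12 were under background on all 9 arrays. All of these count in the knock-down, and Gbp2 and P2ry12 also in the decoy group. Between the treated groups 3 of the 55 were called, Brcc3, Il1rn and Il18rap, all lower in the knock-down, where 3.00% of all genes were called, 1.36% higher and 1.65% lower. The median differences of the 55 genes were 0.11 and 0.08, beside 0.08 and 0.04 for all genes. No gene was called in opposite directions in the comparisons with control. All rises below are after quantile normalisation. For the rises named in the knock-down, the raw mean relative to control was 0.62 for Aim2, 0.92 for Txnip, 0.95 for Kcnk6 and 0.97 for Naip5. That ratio was 1.64 for Eif2ak2, 1.52 for Mlkl, 1.49 for Gbp3, 1.275 for P2rx4, 1.19 for Il1rn and 1.115 for Il18bp. For the rises named in the decoy group it was 0.82 for Kcnk6, 0.93 for Aim2, 0.98 for Txnip and 1.003 for Naip5. It was 1.06 there for Il18rap, 1.07 for P2rx4, 1.40 for Eif2ak2, 1.45 for Mlkl and 2.30 for Il1rn. Under median scaling the sign turned for Naip5, Aim2, Kcnk6 and Txnip in the knock-down and for Aim2 and Kcnk6 in the decoy group. Of the rises named below, those of Eif2ak2 in both groups, Gbp3 in the knock-down and Il1rn in the decoy group were still called under median scaling, while Aim2 was called lower in the knock-down (-0.75, adjusted p = 0.0074) and the other rises were not called. The falls named below were all still called, but median scaling itself lowered the median of all kept probes (-0.43 and -0.37). Relative to that median they ran from -1.29 for Irak1 to -2.28 for Clic1 in the knock-down. In the decoy group they ran from -1.15 to -1.81 for the same genes.

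Of 8 other sensors with a kept probe, 4 rose and 2 fell in the knock-down, and 2 rose and 1 fell in the decoy group. Naip2 and Naip5, whose proteins bring bacterial ligands to NLRC4, moved apart, and both belong to a family of closely related genes whose probes may share targets. Naip2 fell by 1.29 in the knock-down (adjusted p = 6.31e-05), with 1 of 3 arrays above background, and by at least 1.74-fold in the decoy group (adjusted p = 0.000196). Naip5 rose by 0.69 and 0.66 (adjusted p = 0.00492 and 0.00982). Aim2, the sensor of cytosolic DNA, rose by 0.51 and 0.95 (adjusted p = 0.00626 and 0.000113), and its other probe was called lower in the knock-down, where the mean over both probes was 0.0097 (adjusted p = 0.955).

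Of 11 regulators of NLRP3 and caspase-1, 5 rose and 3 fell in the knock-down, and 4 rose and 3 fell in the decoy group. Among these rises, Gbp2 in both groups and Serpinb1a in the knock-down were under background on all 9 arrays. Eif2ak2, the double-stranded RNA kinase PKR, rose 4.00-fold and 2.98-fold (adjusted p = 4.08e-07 and 8.02e-06). Gbp3, an interferon-induced GTPase, was under background on all control arrays. After quantile normalisation it was higher in knock-down than in control cells by at least 2.07-fold (adjusted p = 4.33e-05). That bound holds on the quantile-normalised scale only. The log2 difference was 0.59 under median scaling, and the raw knock-down mean was 1.49 times the control mean. Txnip, a thioredoxin-binding protein that can bind NLRP3, rose by 0.98 in the knock-down (adjusted p = 0.000395), where its other kept probe was called lower, and by 0.88 in the decoy group (adjusted p = 0.00143). The mean over its kept probes was 0.063 and 0.25 (adjusted p = 0.79 and 0.29). Brcc3, which removes ubiquitin from NLRP3, fell 2.66-fold in the knock-down (adjusted p = 6.71e-06) and 1.68-fold in the decoy group (adjusted p = 0.00238). Of its 2 other kept probes, 1 was also called lower in the knock-down and 0 were called in the decoy group.

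Of 10 other executioners of cell death, 3 rose and 4 fell in the knock-down, and 3 rose and 3 fell in the decoy group. Mlkl, the pore protein of necroptosis, rose 3.51-fold and 2.98-fold (adjusted p = 6.11e-07 and 4.88e-06), while its other kept probe was called in neither group. Ninj1, which ruptures the membrane after the gasdermin pore has formed, fell by 1.24 and 0.92 (adjusted p = 8.06e-05 and 0.00155). Chmp3, a part of the ESCRT machinery that repairs membranes, fell by 1.16 and 0.82 (adjusted p = 7.67e-05 and 0.00215). Both had 1 of 3 knock-down arrays above background.

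Of 12 IL-1 family ligands, receptors and signalling genes, 4 rose and 1 fell in the knock-down, and 3 rose and 1 fell in the decoy group. Il1a, counted among the knock-down rises, was under background on all 9 arrays. Il1rn, the receptor antagonist of IL-1, rose by 0.89 in the knock-down (adjusted p = 0.000232) and 1.98 in the decoy group (3.94-fold, adjusted p = 4.79e-07). Its other kept probe was called higher in the decoy group only. Il18bp, the secreted inhibitor of IL-18, rose by 0.84 in the knock-down (adjusted p = 0.00238). Il18rap, a chain of the IL-18 receptor, rose by 0.63 in the decoy group (adjusted p = 0.00344), with its other probe called lower and 0.044 for the mean over both (adjusted p = 0.786). Irak1, the kinase downstream of IL-1 and Toll-like receptors, fell by 0.43 and 0.50 (adjusted p = 0.0205 and 0.013), and both calls of Irak1 were lost without control replicate 1 (adjusted p = 0.103 and 0.0746) or control replicate 3 (0.0716 and 0.0541), and the decoy call without decoy replicate 2 (0.051).

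Of 14 ATP receptors, ATP-degrading enzymes and ion channels, 4 rose and 1 fell in each treated group. P2ry12, counted among the rises of both groups, was under background on all 9 arrays. P2rx4, the ATP receptor gene beside P2rx7, rose by 1.23 and 0.81 (adjusted p = 7.70e-05 and 0.00346). Kcnk6, a potassium channel gene, rose by 1.11 and 0.76 (adjusted p = 7.74e-05 and 0.00278), with 1 of its 3 other kept probes called lower, and the mean over all its kept probes was not called (0.21 and 0.16, adjusted p = 0.116 and 0.263). Clic1, which encodes a chloride channel protein, fell 2.92-fold and 2.42-fold (adjusted p = 0.000378 and 0.00265).

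**Figure D5:**
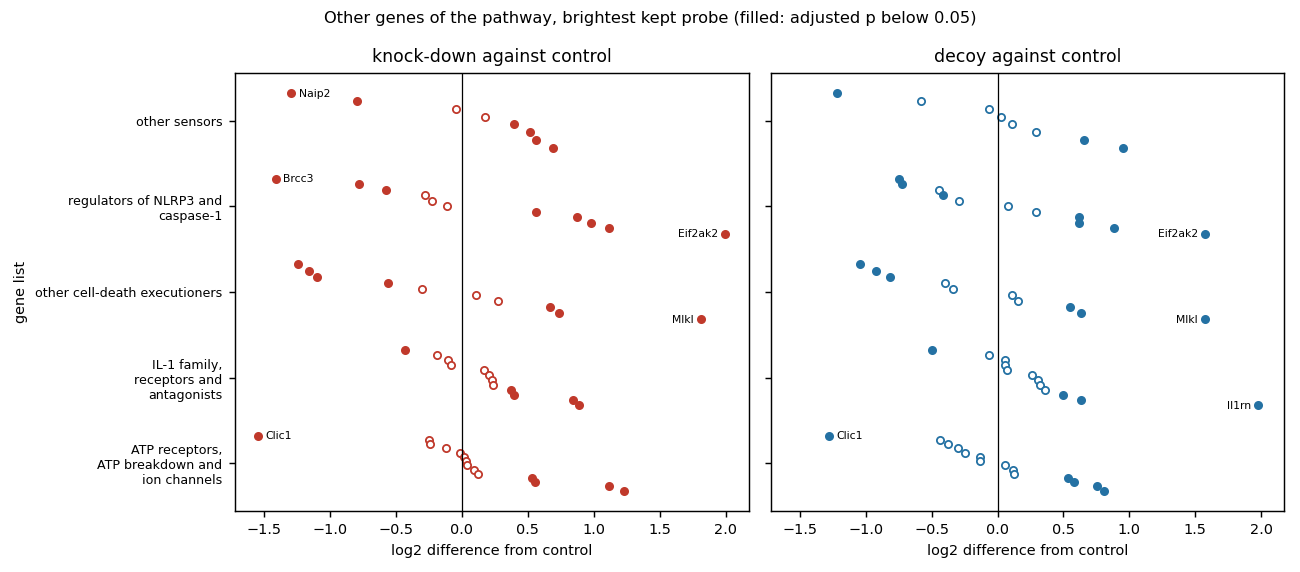
Log2 differences from control of the 55 pathway genes with a kept probe, by list, in the knock-down (left) and decoy (right) groups after quantile normalisation; each point is a gene by its brightest kept probe, and filled points passed an adjusted p below 0.05, the genes with the largest differences being named. In both panels Eif2ak2 and Mlkl lie far to the right and Naip2 and Clic1 far to the left.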

How the data were processed

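RNA from 9 RAW264.7 samples, 3 per group by their titles, was hybridised to Illumina mouse bead arrays. The authors deposited raw probe intensity values, as whole numbers without detection p-values or control probes (2042 blank rows were dropped), and log2 values they had processed by a method that is not stated in the sources used here. The submitters' processing notes name R 2.9.1. From the raw intensities, limma 3.58.1 (R 4.3.3) applied normexp (offset 50), log2 and quantile normalisation. Probes brighter than their array's median on at least 3 arrays were kept (27062 of 45281). The probe was the unit of the fit: lmFit and eBayes over 9 arrays with 3 group means, two-sided, Benjamini-Hochberg over all kept probes, threshold 0.05. The background limit of an array is its modal log2 signal plus 3 SD, taken from values under the mode. "At least" sets the brighter mean against the lowest signal above background, or the probe's own if higher. It uses quantile-normalised values and is no bound on other scales. No member or named probe reached the saturation limit of 60000 units. The number of arrays limits the precision. Symbols came from the platform annotation, with 34885 probes given 1 symbol, 18 several and 10378 none.

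All members and, per list and comparison with control, up to 3 called genes of smallest p were named with values. Members and lists were chosen with earlier results of these data known. The fit was tested on simulated data drawn around normalised values, so that test does not cover the normalisation. Alternatives changed scaling, background correction, filter, gene summary, block, weights, groups in the fit and the arrays included.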

Additional observations from a re-analysis of the deposited data

Results flagged for a closer look

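The effect of the knock-down and that of the decoy on the same gene differed in 5 probes, by the limma test of knock-down against decoy. These were found among the 18 tested member probes and the pathway genes named with values. The named pathway genes had been picked mostly for their calls against control. Of all kept probes, 2.68% were called in this test. Panx1 was lower in the knock-down by -1.16 on probe ILMN_2647544 (adjusted p = 0.00256) and by -0.97 on probe ILMN_2946088 (adjusted p = 0.00744), lower in 3 of 3 arrays against every decoy array on both. These differences were called in 16 of 17 and 18 of 19 settings and lost under median scaling (adjusted p = 0.144 and 0.164). Brcc3 was lower in the knock-down, with a log2 difference of -0.67 (adjusted p = 0.0353), which was called in 10 of 19 settings. Il1rn differed by -1.09 (adjusted p = 0.00102, called in 19 of 19), having risen in both groups against control. Il18rap was above background on 0 of 3 knock-down and 3 of 3 decoy arrays and was lower in the knock-down by at least 1.15-fold, where the fitted difference of -0.73 (adjusted p = 0.0119, called in 16 of 19) is not a measured size.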

How the results depend on the processing

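The counts of called member probes (5 higher and 5 lower for the knock-down, 3 and 4 for the decoy, 0 and 2 between them) were recomputed under 12 alternatives and with each of the 9 arrays left out. Median scaling moved them to 0 and 10, 0 and 8, and 0 and 0, and turned the sign of Casp1 (-0.65 and -0.32 in the treated groups), Casp4 ILMN_2811737 (-0.65) and Il18 ILMN_1236517 (-0.81) with the knock-down, and of Naip5 (-0.14), Aim2 (-0.75 and -0.049), Kcnk6 (-0.084 and -0.21) and Txnip (-0.052). The cause was not tested. Higher calls between the treated groups numbered 1 without background correction, with the authors' processed values, with probes above background on at least 3 arrays, and with the brightest probe per gene. One value per gene leaves fewer features. The brightest probe gave 3 higher and 1 lower in the knock-down, 0 lower in the decoy group and 1 lower between the treated groups, and the mean over a gene's probes gave 1 higher and 1 lower in the knock-down and 1 lower between them, with Il18 at -0.28 in the knock-down. Leaving out 1 array gave 1 to 4 higher and 5 lower in the knock-down, 3 higher and 2 to 3 lower in the decoy group, and 0 to 1 higher and 2 to 4 lower between the treated groups.

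Over all kept probes, the calls between the treated groups (287 higher and 439 lower) moved by more than 1.5 times with offset 16 (134 and 248), median scaling (14 and 35), array weights (146 and 275), only the groups compared (81 and 129), without knock-down replicate 1 (743 and 1131) or 3 (132 and 229), and without decoy replicate 1 (91 and 132) or 2 (117 and 190). Over the kept probes, the mean per gene gave 3981 higher and 4395 lower in the knock-down, against 6117 and 6465. Same-numbered arrays of different groups had deviations that correlated between -0.22 and 0.28 over 9 pairs. Differently numbered arrays gave -0.29 to 0.39 over 18 pairs. Whether the numbers pair the samples cannot be settled from so few pairs. With the replicate number as a block the member counts stayed at 5 and 5, 3 and 4, and 0 and 2. Signal over background limits Nlrp3, Nlrc4, Pycard, Il1b and P2rx7.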

Other observations

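Ripk3, the kinase that activates the necroptosis protein MLKL, was singled out after its values were seen. It fell by 1.10 in the knock-down (2.15-fold, limma adjusted p = 0.00193) and by 1.05 in the decoy group (2.06-fold, adjusted p = 0.0043). Ripk3 was above background on 2 of 3 arrays in each treated group and 3 of 3 in control. The brightest Mlkl probe rose in both groups after quantile normalisation. The knock-down and decoy groups differed in Ripk3 by -0.06 (95% interval -0.58 to 0.46, adjusted p = 0.93).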
